A study of Mus musculus with 5 samples.

Results

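Meis1, Meis2, Pbx2 and Pbx3 encode homeodomain proteins of the TALE class, and this is an account of their 12 probe sets in mouse embryonic forebrain with and without the homeodomain factors Dlx1 and Dlx2. The members were taken by name: every probe set whose only gene symbol in the platform annotation was one of these 4 genes. That gave 3 probe sets for Meis1, 4 for Meis2, 3 for Pbx2 and 2 for Pbx3, out of 45101 on each Affymetrix mouse array. The samples were 5 arrays of total RNA from the ventricular and subventricular zones of the rostral medial ganglionic eminence (MGE), the ventral forebrain domain that gives rise to many cortical interneurons. The embryos were at E15.5, counted in days of gestation, and were either WT or Dlx1/2 mutant, which the titles of the mutant arrays write as -/-, while the title of the WT tissue array holds only an incomplete +/. Freshly dissected tissue gave 1 WT array and 2 mutant arrays, and primary neuronal cultures from the same zones gave 1 WT array and 1 mutant array. Strain, number of embryos, pooling and time in culture are not given in the sources used here, nor whether both mutant tissue samples are separate dissections, so p-values rest on a spread between arrays that may be only technical.

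TALE proteins carry a homeodomain with an extra loop of amino acids. MEIS and PBX proteins bind DNA together, often with a further homeodomain protein such as a HOX factor, and MEIS proteins help to keep PBX proteins in the nucleus. In the ventral forebrain Meis2 is known as a gene of the lateral ganglionic eminence (LGE) and of striatal neurons, Meis1 and Pbx3 are also expressed in the developing striatum, and in olfactory bulb neurogenesis MEIS2 acts with PAX6 and DLX proteins.

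Values are quantile-normalized signals of each array, and differences are log2 differences, taken from WT to mutant or from tissue to culture, each with its limma standard error (SE). Where culture values are given as a pair, WT comes before mutant and each is 1 array. A gene is represented by its brightest probe set (by mean log2 signal), and calls are those with a Benjamini-Hochberg adjusted p below 0.05 over 11063 genes, or over 21602 probe sets where each probe set was fitted. Signals below 5.15 were raised to that floor, and genes or probe sets with a mean signal above 27.8 were tested. All 12 member probe sets passed this filter and none touched the floor, although 1459423_at (Meis1) and 1440091_at (Meis2) lay under a signal of 27.8 on 1 array each and 1443260_at (Meis1) on 2. Dlx1 read 3195 in WT tissue and 602 in WT culture and lay at the floor on all 3 mutant arrays, in the direction the labels give, and Dlx2 ranged from 12.2 to 22.2 in mutants against 1083 and 340 in WT. The 2 mutant tissue arrays differed by 0.04 to 1.05 (log2) over the 12 probe sets, against an SD of 0.324 for that difference over all genes tested. These are bulk RNA samples, so a change in the number of cells of a type and a change in RNA per cell cannot be told apart.

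**Figure D1:**
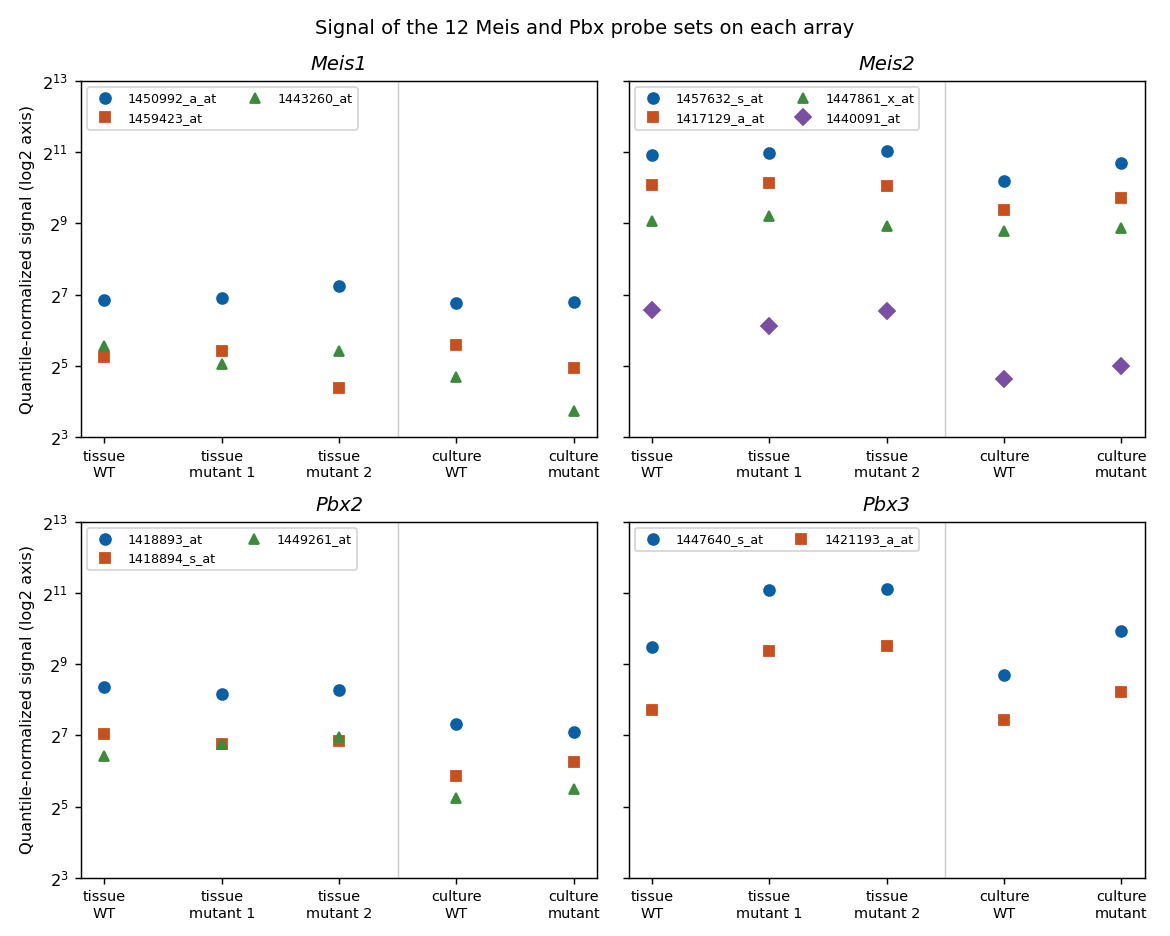
Quantile-normalized signal (log2 axis) of the 12 probe sets on each of the 5 arrays, 1 panel per gene and 1 symbol per probe set. The mutant arrays of Pbx3 stand above the WT array of the same preparation in both probe sets, while in the other 3 genes the probe sets do not share 1 direction.

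Of the 4 genes, Pbx3 was the 1 that rose in mutants. Its probe set 1447640_s_at read 711 in WT tissue against 2166.5 and 2221 in the mutants, and 417 in WT against 971 in mutant cultured cells. Mutant tissue therefore stood highest and WT culture lowest, with mutant culture above WT tissue. The genotypes did not overlap within either preparation, an order with mutants higher that 22.9% of all genes tested shared (20.6% with mutants lower). In tissue the rise was 1.63 ± 0.09 (SE), a 3.09-fold difference with a 95% interval of 2.71 to 3.51 (limma, adjusted p = 3.0e-07), the 80th largest rise of the 11063 genes. The 2 mutant tissue arrays differed by 0.04 for this probe set. In culture, where 1 array stood against 1 and no test was made, the difference was 1.22, or 2.33-fold. Across both preparations Pbx3 rose by 1.45 ± 0.12 (2.74-fold, limma adjusted p = 0.0018), and the call held when 1 of the mutant tissue arrays was dropped (adjusted p = 0.013 and 0.012). Without an intensity trend in the prior variance the call was lost in tissue (adjusted p = 0.098) and across both preparations (adjusted p = 0.13), and with dim genes tested too it was lost across both preparations (adjusted p = 0.31).

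The other Pbx3 probe set, 1421193_a_at, gave the same direction and read 210 in WT tissue against 658 and 732 in the mutants, and 172 against 296 in culture. It rose by 1.73 ± 0.13 in tissue (3.31-fold) and by 1.32 ± 0.21 across both preparations (limma adjusted p = 0.041 over all probe sets). In culture its difference was 0.79, or 1.72-fold. The probe sets thus gave similar sizes in tissue and less similar sizes in culture. Over the 5 arrays their log2 values correlated with a Pearson r of 0.985, a description over arrays that share the same genotypes.

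Among the 4 genes, 1 rose in tissue and 1 across both preparations, and over all genes tested 8.59% rose in tissue and 0.814% across both preparations. Of the 12 probe sets 2 rose in each comparison, both of Pbx3, beside 6.8% and 0.5% of all probe sets. These base shares depend on the setting: without an intensity trend 0 of 11063 genes were called higher in tissue and 1 across both preparations, with dim genes tested too 11 and 0 of 18193, and with the mean of a gene's probe sets 269 and 24 of 9853. In culture Pbx3 was also the 1 member that was at least 2-fold higher in the mutant, a mark that 1.85% of the genes passed. That holds by its brighter probe set, while the other Pbx3 probe set was 1.72-fold higher. No member fell in mutants in either comparison, beside 741 of 11063 genes called lower in tissue and 28 across both preparations. Over the 12 probe sets the median tissue difference was 0.0049, and 6 lay above 0 and 6 below. The median over all probe sets was also close to 0.

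Pbx2, a widely expressed partner of the MEIS proteins, was not called with genotype. Probe set 1418893_at read 329 in WT tissue against 285 and 308 in the mutants, and 159 against 137 in culture. Both genotypes lay close together within a preparation, with mutants on the low side each time, an order seen in 20.6% of all genes tested. The difference was −0.15 ± 0.14 in tissue (limma adjusted p = 0.51), and its 95% interval ran from −0.46 to 0.15, so mutant levels from 0.728 to 1.11 times WT are within it. Across both preparations the difference was −0.18 ± 0.14 (limma adjusted p = 0.62). The other Pbx2 probe sets did not share this direction. Probe set 1418894_s_at read 132 in WT tissue against 109 and 115 in mutants, but 57.8 in WT culture against 75.5 in mutant culture. Probe set 1449261_at read 86.1 in WT tissue against 108 and 124 in mutants, and 37.9 in WT culture against 45.4. It was above WT on every mutant array, an order that 22.9% of all genes tested shared. Its tissue difference of 0.43 ± 0.22 missed the threshold (adjusted p = 0.25 over all probe sets).

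Meis2, which marks LGE-derived neurons and their progenitors, was bright and nearly level between genotypes in tissue. Probe set 1457632_s_at read 1928 in WT tissue and 2023 and 2114 in mutant tissue, against 1171 in WT culture and 1670 in mutant culture. The WT tissue value lay just under the mutant pair, and the gap between the culture arrays was wider. The tissue difference was 0.10 ± 0.08 (limma adjusted p = 0.45), with a 95% interval from −0.07 to 0.28 that reaches at most 1.21-fold. In culture the difference was 0.51, or 1.43-fold, with no test. Across both preparations it was 0.28 ± 0.11, which did not pass (unadjusted p = 0.035, limma adjusted p = 0.34).

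The remaining Meis2 probe sets placed tissue differences at 0.02 ± 0.09 (1417129_a_at), −0.01 ± 0.14 (1447861_x_at) and −0.23 ± 0.27 (1440091_at). In culture all 4 Meis2 probe sets were higher in the mutant array, by 0.08 to 0.51. They report 1 gene on the same pair of arrays, so they do not count as separate evidence. The median culture difference over all genes tested was 0.009. Probe set 1417129_a_at read 671 in WT culture and 837 in mutant culture, and 1447861_x_at read 444 and 470. The dimmest, 1440091_at, read 24.6 and 31.8 in culture against 95.0 in WT tissue and 69.8 and 93.4 in mutant tissue. In the platform's naming, the suffix _a marks probe sets that match several transcripts of 1 gene. The suffixes _s and _x mark probe sets whose probes are shared with other sequences. The 4 Meis2 probe sets thus need not report the same transcripts. The probe set that stands for Pbx3, 1447640_s_at, is also of the _s kind.

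Meis1, a MEIS gene also known for its part in blood stem cells, gave no call with genotype and its probe sets split in direction. Probe set 1450992_a_at read 115 in WT tissue against 121 and 153 in the mutants, and 108 against 111 in culture. Only mutant tissue replicate 2 stood clear of the rest. The tissue difference was 0.24 ± 0.22 (limma adjusted p = 0.49) with a 95% interval from −0.23 to 0.71, a range that holds a 1.64-fold rise. Across both preparations the difference was 0.16 ± 0.19 (limma adjusted p = 0.76).

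Both dimmer Meis1 probe sets had lower mutant means in each preparation. Probe set 1443260_at read 47.3 in WT tissue against 33.0 and 42.5 in the mutants, and 25.9 against 13.3 in culture. Every mutant array thus lay under its WT array, as for 20.6% of all genes tested. Across both preparations the difference was −0.60 ± 0.38 (limma adjusted p = 0.56 over all probe sets). Probe set 1459423_at read 38.2 in WT tissue against 42.7 and 20.7 in the mutants, and 48.4 against 30.4 in culture. Its mutant tissue pair differed by 1.05, the widest replicate gap among the 12. Averaging the probe sets turned the Meis1 tissue difference to −0.15 and that across both preparations to −0.31, so no direction with genotype can be given for Meis1.

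**Figure D2:**
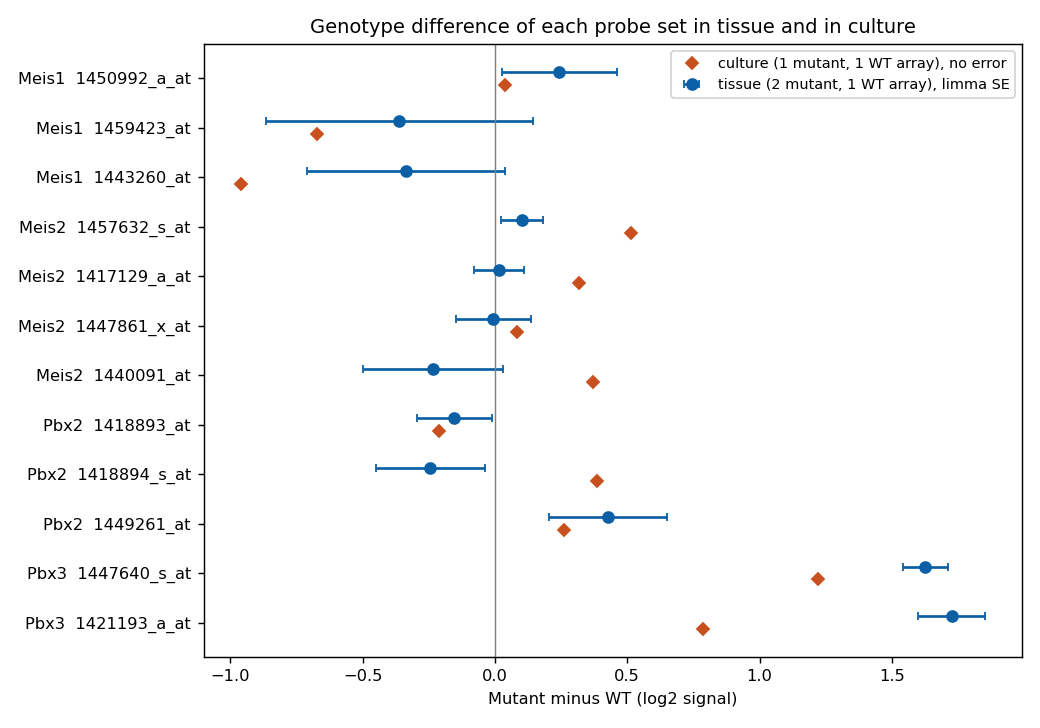
Mutant minus WT difference (log2 signal) of each member probe set, in tissue as the limma estimate with its SE (2 mutant arrays, 1 WT array) and in culture as the difference of 1 array from 1. Both Pbx3 probe sets lie between 0.79 and 1.73, and the probe sets of the other genes lie between −0.96 and 0.51.

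The size of the genotype difference was compared between preparations with an interaction term, the culture difference minus the tissue difference. For Pbx3 it was −0.41 ± 0.14 by the brighter probe set (limma adjusted p = 0.14) and −0.94 ± 0.21 by the other (adjusted p = 0.058 over all probe sets, 95% interval −1.42 to −0.46). For Meis2 it was 0.41 ± 0.12 (limma adjusted p = 0.10), with the larger difference in culture. For Meis1 and Pbx2 it was −0.21 ± 0.34 and −0.06 ± 0.24. The count of members past the threshold was 0 of 4 genes and 0 of 12 probe sets, beside 4.48% of all genes and 2.62% of all probe sets, and 3 of the 12 had an unadjusted p below 0.05. A difference in genotype effect between tissue and culture was therefore not shown for any member, and for Pbx3 and Meis2 the unadjusted 95% intervals of the gene fits did not include 0.

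In culture 3 of the 4 genes were lower than in tissue. Pbx2 fell by 1.08 ± 0.14 in culture (2.12-fold, limma adjusted p = 0.00076) and Pbx3 by 1.002 ± 0.12 (2.00-fold, adjusted p = 0.00047), each with genotype in the model. Meis2 fell by 0.48 ± 0.11 (1.40-fold, limma adjusted p = 0.010). Meis1 differed by −0.21 ± 0.19 and did not pass (limma adjusted p = 0.42). Among all genes tested 19.2% fell in culture. At the level of probe sets 9 of 12 fell, beside 18.1% of all probe sets, and the median of the 12 was −0.83, against −0.05 over all probe sets. Those that did not pass were 1447861_x_at of Meis2 (−0.23 ± 0.13) and 1450992_a_at and 1459423_at of Meis1. The Meis2 call was lost with dim genes tested too (adjusted p = 0.12) and without an intensity trend (adjusted p = 0.073).

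For Pbx2 all 3 probe sets fell in culture, by 0.84 to 1.28. The fall of 1418893_at was alike in the genotypes, 2.07-fold in WT and 2.16-fold in mutants. That of 1418894_s_at was 2.29-fold in WT and 1.48-fold in mutants, and that of 1449261_at 2.27-fold and 2.55-fold. By 1447640_s_at, Pbx3 was 1.71-fold lower in WT culture than in WT tissue and 2.26-fold lower in mutant culture than in mutant tissue. By 1421193_a_at it was 1.22-fold lower in WT culture and 2.35-fold lower in mutant culture. Of the Meis2 probe sets, 1440091_at fell most, by 1.60 ± 0.28 (3.04-fold, adjusted p = 0.0040 over all probe sets), while 1457632_s_at and 1417129_a_at fell by 0.48 and 0.51. The 3 probe sets that fell thus differed in size for 1 gene. For Meis1, 1443260_at fell by 1.22 ± 0.38 (adjusted p = 0.040 over all probe sets), and 1459423_at differed by 0.17 ± 0.41.

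The other TALE genes give the setting of these members. Of 14 listed, 13 had a named probe set, 1 is not analysed here, and 5 were bright enough to test, namely Meis3, Pknox1, Pknox2, Tgif1 and Tgif2. The PKNOX proteins, also called PREP, are partners of PBX that resemble the MEIS proteins, and TGIF proteins are TALE repressors. With genotype 0 rose and 1 fell in tissue, and 0 of 5 passed across both preparations (median −0.26 in each, with the median over all genes near 0). Tgif2 read 801 in WT tissue against 558 and 581 in the mutants, and 342 against 384 in culture. It fell by 0.49 ± 0.11 in mutant tissue (limma adjusted p = 0.0087) by this probe set, while its dimmer probe set 1431115_at differed by 0.40 and the mean of both by −0.05 (adjusted p = 0.92), so the fall rests on the brighter one. The other 4 differed by −0.89 to 0.19 in tissue and did not pass.

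In culture 2 of these 5 fell and 0 rose, with a median of −0.58. Pknox1 read 214 in WT tissue against 237 and 251 in the mutants, and 119 against 142 in culture. It fell by 0.81 ± 0.15 (limma adjusted p = 0.0039), and its 3 probe sets above the filter differed by −0.58 to −0.83. Tgif2 fell by 0.85 ± 0.16 (limma adjusted p = 0.0046). Pknox2 had the 1 interaction past the threshold in the family. It read 205 in WT tissue against 230 and 186 in the mutants, and 228 against 94.5 in culture. The difference was 0.01 in tissue and −1.27 in culture, an interaction of −1.28 ± 0.29 (limma adjusted p = 0.039). This call was lost without an intensity trend (adjusted p = 0.26), with dim genes tested too (adjusted p = 0.35) and with the mean of its probe sets (adjusted p = 0.23).

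**Figure D3:**
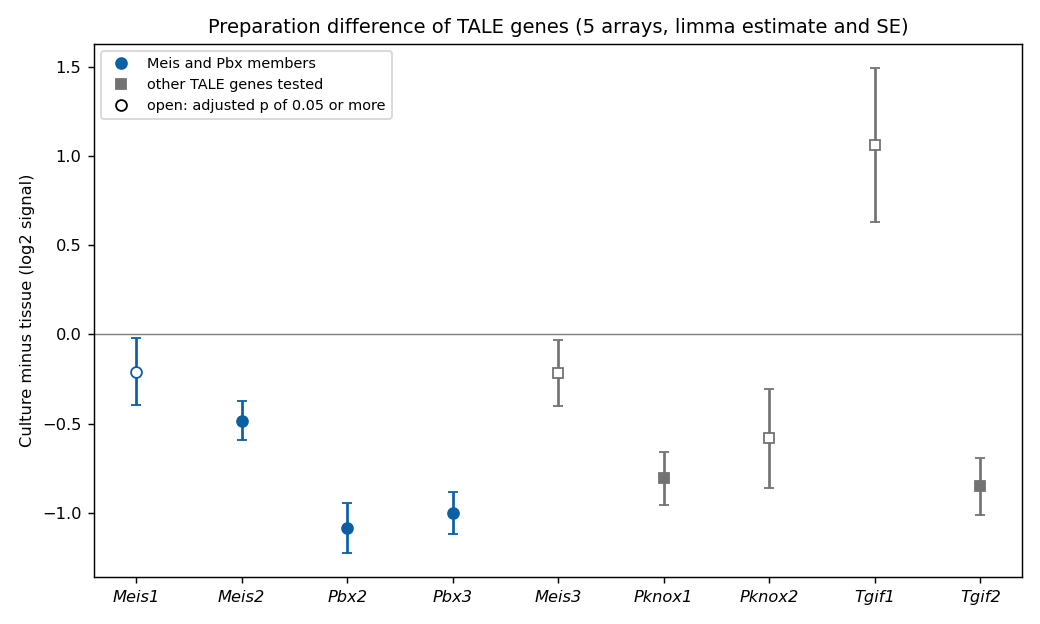
Culture minus tissue difference (log2 signal) of the 4 members and of the 5 other TALE genes tested, as the limma estimate with its SE from the model of preparation and genotype over 5 arrays. Filled symbols mark an adjusted p below 0.05: Meis2, Pbx2, Pbx3, Pknox1 and Tgif2, all below 0.

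HOX proteins are the best known partners of PBX and MEIS in the trunk and hindbrain, and their genes were nearly all dim here. Of 33 Hox genes with a named probe set 31 were too dim to test, and 27 stayed below a signal of 27.8 on every array. The 2 tested were Hoxa5 and Hoxc6. Hoxa5 ranged from 48.3 to 81.3 in tissue and read 108 and 138 in culture, a rise of 0.96 ± 0.28 in culture (limma adjusted p = 0.027), by a probe set of the _x kind. That call was lost without an intensity trend (adjusted p = 0.060), with dim genes tested too (adjusted p = 0.19) and without mutant tissue replicate 1 (adjusted p = 0.061). With genotype neither passed.

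Of 7 other partners 4 were tested. In mutant tissue 2 rose and 1 fell, and across both preparations 1 fell, Dlx5, which is itself known to depend on Dlx1 and Dlx2. Dlx6 was too dim to test and was named after its values were seen. It read 173 in WT tissue against 5.15 and 6.85 in the mutants, and 27.6 against 5.15 in culture. En1 and En2, also too dim to test, stayed at 8.44 or below on all 5 arrays. Pbxip1, a protein that binds PBX and blocks its binding to DNA, read 40.7 in WT tissue against 88.5 and 89.2 in the mutants, and 235 against 240 in culture. It rose in mutant tissue by 1.13 ± 0.27 (2.18-fold, limma adjusted p = 0.016) and in culture by 1.90 ± 0.26 (limma adjusted p = 0.00097), and its genotype difference within culture was 0.03. Its other probe set gave 0.42 in mutant tissue and 1.52 in culture. Otx2, a homeodomain factor of the anterior brain, rose in mutant tissue by 1.26 ± 0.15 (2.39-fold, limma adjusted p = 0.00014). The tissue calls of Pbxip1 and Otx2 were lost without an intensity trend (adjusted p = 0.11 for both) and with dim genes tested too (adjusted p = 0.23 and 0.17).

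Because Pbx3, Meis1 and Meis2 are known from the striatal lineage, the striatal and LGE list was set beside them. Of 18 genes with a probe set 12 were tested. In mutant tissue 4 rose and 3 fell (median −0.30), and across both preparations 1 rose and 1 fell (median −0.05). The 4 with the lowest adjusted p in tissue moved both ways. Isl1, a LIM-homeodomain factor of striatal neurons, rose by 0.81 ± 0.08 and the zinc finger gene Tshz1 by 0.82 ± 0.12 (limma adjusted p = 4.3e-05 and 0.00068). Ebf1, a helix-loop-helix factor of striatal neurons, fell by 1.503 ± 0.20 and the zinc finger gene Zfp503 by 1.09 ± 0.15 (limma adjusted p = 0.00033 and 0.00041). Across both preparations the genes that passed were Tshz1, higher by 0.73 (limma adjusted p = 0.043), and Ebf1, which fell by 1.502 (adjusted p = 0.016). Both of these calls were lost when 1 of the mutant tissue arrays was dropped, whichever it was (adjusted p = 0.22 to 0.26 for Tshz1, 0.071 to 0.10 for Ebf1). All 4 tissue calls were lost without an intensity trend (adjusted p = 0.11 to 0.12) and with dim genes tested too (adjusted p = 0.090 to 0.20). With the mean of a gene's probe sets the tissue calls of Ebf1 (−0.71, limma adjusted p = 0.15) and Zfp503 (−1.54, 0.090) were lost. Those of Isl1 and Tshz1 held (limma adjusted p = 0.014 and 0.040). In that setting the calls of Ebf1 and Tshz1 across both preparations were lost too (−0.88 and 0.68, limma adjusted p = 0.26 and 0.10). The Pbx3 rise of 1.63 was thus not accompanied by 1 direction of the striatal list. Summed over the 18 genes, the signal was 5808 in WT tissue, 7069 to 7114 in the mutants, and 2847 against 3069 in culture. The higher tissue sum came mainly from Isl1 (1349 against 2348 and 2389) and Bcl11b (2116 against 2788 and 2626, named after its values were seen), while 5 of the 12 tested genes lay above 0.

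Meis genes are also known to respond to retinoic acid, so a retinoid list was described. Of 16 genes with a probe set 7 were tested. In mutant tissue 0 rose and 1 fell, Crabp2, a cellular retinoic acid binding protein gene, by 1.40 ± 0.19 (limma adjusted p = 0.00040), and across both preparations 0 passed (medians −1.09 and −0.88). Retinoid genes too dim to test moved both ways (named after their values were seen). Crabp1 read 113 in WT tissue against 5.54 and 19.9 in mutant tissue, and 67.4 against 18.3 in culture. Cyp26a1 read 5.15 in WT tissue against 20.6 and 7.70 in mutant tissue. The synthesis genes Aldh1a1 and Aldh1a2 lay at the floor on all 5 arrays.

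Some markers of neighbouring regions and of cell states passed the test with genotype in tissue, and the sums given here also hold genes too dim to test. Septal, preoptic and diencephalic markers summed to 797 in WT tissue and 1824 to 1955 in mutant tissue, and to 360 and 552 in WT and mutant culture (6 of 11 tested, 3 higher in mutant tissue and 1 across both preparations). Most of that gap was 1 gene, Otp, with 41.7 against 844 and 997, and the brightest in WT, Zic1, read 623 against 590 and 601 (both named after their values were seen). Markers of the caudal ganglionic eminence (CGE) summed to 2106 in WT tissue and 4490 to 4660 in mutant tissue, and to 1122 and 1829 in culture (4 of 6 tested, 2 higher and 1 lower in mutant tissue). Most of the CGE sum was Nr2f1. Calb2 of the same list, too dim to test and named after its values were seen, went the other way. It read 130 in WT tissue against 14.6 and 6.63 in mutant tissue. Pallial markers summed to 243 in WT tissue and 447 to 481 in mutant tissue, and to 210 and 313 in culture. Of the 11, 3 were tested and 1 was higher in mutant tissue. Pallial genes too dim to test moved both ways (named after their values were seen). Neurod6 read 5.15 in WT tissue against 69.0 and 81.7 in mutant tissue. Emx1 read 30.7 against 6.16 and 5.15 there, and Tbr1 27.3 against 9.65 and 5.15. MGE markers summed to 3558 in WT tissue and 1964 to 2053 in mutant tissue (4 of 5 tested, 1 higher and 2 lower). Gbx1 lay at the floor on all 5 arrays. Most of that fall was Lhx8, with 1513 in WT tissue against 164 and 157, and Lhx6 read 1332 against 894 and 936. Olig2 read 666 against 841 and 880 (these genes were named after their values were seen). Neuronal markers summed to 10060 and 12372 to 12814, with 3 of 6 higher in mutant tissue, and progenitor markers to 23743 and 26278 to 26556, also with 3 of 6 higher. The part of these values in the Pbx3 rise was not tested. Of endothelial markers 5 of 9 were tested, of red blood cell and megakaryocyte markers 4 of 6, and of microglial markers 5 of 7. For pericyte and mesenchymal markers it was 5 of 6, and for choroid plexus markers 2 of 4. Among these 0 genes were called with genotype in tissue or across both preparations. Over all 11063 genes 950 were called higher and 741 lower in tissue, and 90 and 28 across both preparations. Across both preparations, 0 calls among so few genes shows little. Endothelial genes too dim to test moved both ways (named after their values were seen). Pecam1 read 16.5 in WT tissue against 49.3 and 44.2 in mutant tissue, and Tie1 29.7 against 11.9 and 16.5.

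The same lists were compared between culture and tissue. MGE markers fell (4 of 4 tested, to sums of 1076 in WT and 642 in mutant culture), as did 4 of 4 CGE markers and 2 of 6 septal, preoptic and diencephalic markers. Endothelial markers went from sums of 983 to 1161 in tissue to 193 and 248 (3 of 5 lower), red blood cell and megakaryocyte markers from 434 to 572 to 131 and 135 (3 of 4 lower), and microglial markers from 695 to 755 to 543 and 441 (2 of 5 lower). The pericyte and mesenchyme sum went from 840 to 954 in tissue to 14193 and 14222 (1 of 5 higher, 2 lower), nearly all of it the smooth muscle actin gene Acta2, and the choroid plexus sum from 59 to 85 to 110 and 137 (1 of 2 higher). Neuronal markers summed to 8755 and 10231 in culture (3 of 6 higher, 2 lower) and progenitor markers to 25322 and 29566 (3 of 6 higher, 2 lower). The progenitor sum held opposite moves (genes named after their values were seen). Hes5 read 3785 in WT tissue and 3685 and 3271 in mutant tissue, against 101 and 316 in culture. Sox2 read 5622, then 6400 and 6959, against 2729 and 3591. Vim rose, from 6094 in WT tissue and 5855 and 5969 in mutant tissue to 11075 and 11953 in culture. The part of these values in the lower Pbx2, Pbx3 and Meis2 signals of culture was not tested.

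Genes with the most similar pattern were found for members whose log2 signal spanned at least 1, which were Pbx2 and Pbx3. Likeness was the distance between log2 values centred on each gene's own mean over the 5 arrays. The 3 genes nearest to Pbx3 were Tox (distance 0.131, Pearson r = 0.999), Pmch (0.158, r = 0.997) and Nr2f1 (0.255, r = 0.994). Tox, an HMG-box gene, read 231 in WT tissue against 688 and 742 in the mutants, and 124 against 301 in culture. Nr2f1, a nuclear receptor gene of the CGE and of cortical patterning, read 1491, then 4009 and 4153, then 855 and 1635 in the same order. Pmch, the gene of melanin-concentrating hormone of the lateral hypothalamus, was dim, with 35.4 in WT tissue against 103 and 106 in the mutants, and 19.4 against 41.7 in culture. The genes nearest to Pbx2 were Zfp740 (distance 0.040), Midn (0.066) and Vps72 (0.068), which fell in culture by 1.07 to 1.11. These likenesses are a description over 5 arrays that share their genotypes and preparations, and Pmch did not pass across both preparations (limma adjusted p = 0.071).

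**Figure D4:**
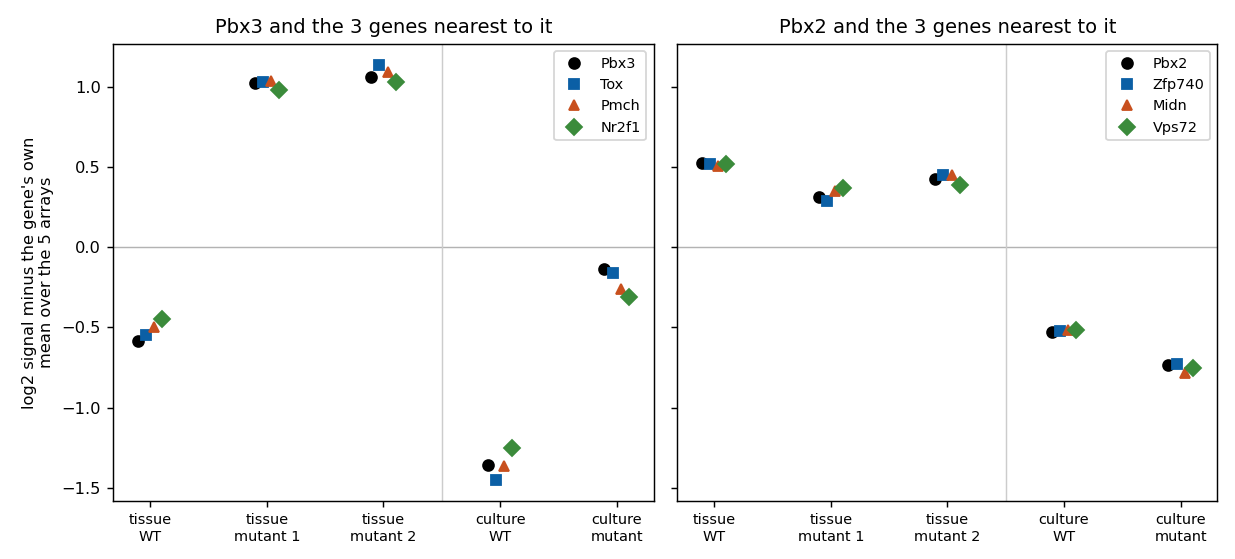
Log2 signal of Pbx3 (left) and Pbx2 (right) and of the 3 genes nearest to each, each gene centred on its own mean over the 5 arrays, with 1 symbol per gene. Pbx3, Tox, Pmch and Nr2f1 are highest on the mutant tissue arrays and lowest on WT culture, and Pbx2 and its neighbours are lower on both culture arrays than on any tissue array.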

How the data were processed

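For each of 5 arrays the authors deposited an intensity per probe set on a linear scale. By their values the arrays were scaled to a trimmed mean near 150, with software not given in the sources used here. Array medians spanned 0.183 (log2), so arrays were quantile normalized. Signals below the pooled 20th percentile (5.15) were raised to it before log2 was taken. Platform annotation gave 1 symbol to 34958 probe sets, several to 932 and none to 9211, and 64 control probe sets were not tested. Fits used limma 3.58.1 in R 4.3.3 (lmFit, eBayes with an intensity trend), across all genes at once. They covered genes, or all probe sets, above the pooled median. The fits were run on simulated data with the same spread for every gene, to see that estimates came near the planted sizes. That run could not test the intensity trend or the calls that depend on it. The tissue fit had 1 residual degree of freedom, the additive model 2 and the interaction model 1. In the tissue and interaction fits the only residual came from the mutant tissue pair, and groups of 1 array were assumed to vary alike. The gene fits had 10.9, 5.95 and 8.57 prior degrees of freedom in the same order. SEs and p-values thus rest mostly on the variance prior over all genes, and less on a gene's own arrays. The members, gene lists and tests were chosen with earlier results of these data known. Named genes were all member probe sets, called genes of the other TALE list, at most 4 called genes of each further list by adjusted p, and the 3 nearest genes of each member that spanned at least 1 (log2). Other lists are given as counts and sums. Alternatives changed the scaling, floor, filter, probe set choice, variance trend and mutant tissue arrays. The number of arrays limits the precision.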

Additional observations from a re-analysis of the deposited data

Results flagged for a closer look

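Over all genes tested the genotype difference differed between culture and tissue for 496 of 11063 (limma interaction term), and 15 of the 78 tested genes of all lists were among them. Given here are the 5 called among 39 tested genes, which were the 4 members, their nearest genes and the TALE, partner, Hox, striatal and retinoid lists. None of the 4 members was called. The interaction was −1.28 ± 0.29 for Pknox2 (adjusted p = 0.039), where mutant culture was the low array. It was −0.52 ± 0.12 for Nr2f1 (adjusted p = 0.042) and −0.62 ± 0.15 for Isl1 (adjusted p = 0.045), both with the larger rise in tissue. It was 1.41 ± 0.27 for Zfp503 (adjusted p = 0.019) and 2.53 ± 0.29 for Tac1 (adjusted p = 0.0030), both lower in mutant tissue and higher in mutant culture. All 5 calls were lost without an intensity trend (adjusted p = 0.23 to 0.36), with dim genes tested too (0.14 to 0.35) and with the mean of a gene's probe sets (0.15 to 0.33), and that of Nr2f1 also with the deposited scaling (0.12). The culture side of each rests on 1 array against 1.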

How the results depend on the processing

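Of 112 alternative values with a test for the 4 genes, 101 kept their direction and their side of the threshold, 5 lost the call and 6 changed sign. Of 28 without a test, 26 kept their direction. Taking the mean of a gene's probe sets turned the tissue difference to −0.15 for Meis1, −0.031 for Meis2 and 0.010 for Pbx2, that across both preparations to −0.31 for Meis1 and 0.068 for Pbx2, and the interaction of Pbx2 to 0.14. It also moved the culture difference to −0.53 for Meis1, 0.32 for Meis2, 0.15 for Pbx2 and 1.003 for Pbx3. The culture difference of Pbx3 was 1.26 with the deposited scaling and 1.19 with log2(value + 16). Without an intensity trend Pbx3 missed the threshold in tissue (1.63, adjusted p = 0.098) and across both preparations (1.45, adjusted p = 0.13), and so did Meis2 for preparation (−0.48, adjusted p = 0.073). With no filter on dim genes the same was seen for Pbx3 across both preparations (1.45, adjusted p = 0.31) and Meis2 for preparation (−0.48, adjusted p = 0.12), where 18193 genes were tested. Of the other genes named with a call, all 9 in tissue, all 5 across both preparations and all 5 interactions missed the threshold in either setting, and for preparation 1 of 7 without the trend and 3 of 7 without the filter. With the mean of probe sets 4 of 9 in tissue, 2 of 5 across both preparations and 5 of 5 interactions missed it. The cause of these losses was not tested. Leaving out 1 mutant tissue array gave tissue differences of 1.63 to 1.65 for Pbx3, with no test, since no residual degrees of freedom remained. The preparation calls of Pbx2 and Pbx3 held in all 8 alternatives. No paired analysis was possible, because the labels link no arrays by embryo or dissection and only mutant tissue has more than 1 array.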

Other observations

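Of the TALE genes too dim to test, 2 Iroquois genes stood higher in mutant tissue, and they were picked out after their values were seen. Irx1 read 7.73 in WT tissue and 36.6 and 48.4 in mutant tissue, with 27.4 in WT culture and 34.2 in mutant culture. Irx5 read 14.6 in WT tissue and 26.1 and 39.6 in mutant tissue, with the floor in WT culture and 14.2 in mutant culture. The other Iroquois genes, also too dim to test, did not share this direction clearly. Irx3 read 18.0 in WT tissue against 5.15 and 13.4 in mutant tissue, and Irx2 23.4 against 12.5 and 32.2. Irx4 and Irx6 lay at the floor in WT tissue and on 1 mutant tissue array each. Pbx4 stayed between 8.01 and 31.4 on all 5 arrays by its brighter probe set.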
